A study of Mus musculus with 12 samples.

Results

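Serum amyloid A genes (Saa1, Saa2 and Saa3), lipocalin 2 (Lcn2), pentraxin 3 (Ptx3) and haptoglobin (Hp) are acute-phase genes that macrophages can express, and all 6 were found by symbol among the 43131 genes of the count table. Bone marrow-derived macrophages (BMDMs) of C57BL/6 mice were obtained by culture with M-CSF, the growth factor that drives macrophage differentiation (50 ng/mL, 7 days), and RNA-seq gave 12 libraries, 3 in each group. The headings give 4 groups. The untreated ones are headed LPS- tlr4f/f or, with Cre, LPS- tlr4f/f-lysM-cre. Those that received LPS (6 h, 1 µg/mL) are headed LPS+ tlr4f/f or, with Cre, LPS+ tlr4f/f-lysM-cre. All 4 groups carry the loxP-flanked tlr4 on both alleles. The cre groups also carry Cre under the lysozyme M promoter, which is active in macrophages and neutrophils and acts only after a cell has switched this promoter on. The labels do not say whether the 3 libraries of a group came from separate mice, so the p-values below measure the spread between these libraries, and the age of the mice used for BMDMs is not given in the sources used here.

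Acute-phase proteins are secreted when infection or injury is sensed. The liver makes most of them in response to interleukin 6, interleukin 1 and TNF, which act through STAT3, C/EBP factors and NF-kB, while macrophages that detect LPS through TLR4 switch on a smaller set of their own. SAA proteins are lipid-binding apolipoproteins: Saa1 and Saa2 are chiefly hepatic, and Saa3 is the form known from macrophages and fat tissue. Lcn2 withholds iron from bacteria by binding their siderophores, Ptx3 is a soluble pattern recognition molecule that binds microbes and complement, and Hp captures free haemoglobin.

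The targeted gene went against the headings. Tlr4 was at 114.6 ± 35.3 CPM (mean ± SD, n = 3, as for all groups) under the heading LPS- tlr4f/f and at 109.5 ± 12.5 CPM under LPS- tlr4f/f-lysM-cre, but at 27.7 ± 3.397 CPM under LPS+ tlr4f/f and 25.6 ± 1.64 CPM under LPS+ tlr4f/f-lysM-cre. CPM are counts scaled to a common library size (counts per 10 to the power of 6, with TMM factors over the 12 libraries). Lyz2, the gene into which Cre is inserted, was at 13101 ± 8914, 7585 ± 1784, 11.8 ± 2.20 and 62.3 ± 11.9 CPM in the same order. Il1b, a cytokine gene induced by LPS, was at 3.70 ± 3.44, 4223 ± 3508, 3.21 ± 0.469 and 2599 ± 94.9 CPM. If the heading LPS- tlr4f/f-lysM-cre is exchanged with LPS+ tlr4f/f, the low Tlr4 and Lyz2 libraries are the cre libraries and the high Il1b libraries are the LPS libraries. The labels could not be settled from the files, so groups are named below by their headings and each comparison is read both ways.

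The SAA genes lie together on chromosome 7 of GRCm38 (mm10), from position 46711998 to 46754313, in the order Saa3, Saa4, Saa1 and Saa2. Lcn2 lies on chromosome 2 (32384637 to 32387739), Ptx3 on chromosome 3 (66219887 to 66225806) and Hp on chromosome 8 (109575128 to 109579172). The deposited counts are per transcript of these genes, with no value for single exons. RefSeq start regions of GRCm38.p6, 250 bases before to 50 bases after the start site, were matched for 5 of the 6 members; Hp had none. They were searched on both strands for TTNNGCAA, a C/EBP-type motif, for TTCNNNGAA, a STAT-type motif, and for the NF-kB consensus. All 5 held TTNNGCAA, which 10.8% of the 32851 start regions of the genome hold. TTCNNNGAA, found in 8.30% of them, matched in none of the 5, and the NF-kB consensus, found in 8.46%, matched only in Ptx3. These matches are descriptions of the letters and not evidence of binding. The start regions of Saa1, Saa3, Lcn2 and Ptx3 are shown as those of the SAA forms of liver and macrophages and of the other abundant members with a sequence, each 5′ to 3′ along its gene with the matches in capitals. They cover chr7:46742931-46743230 (minus strand), chr7:46715627-46715926 (minus strand), chr2:32387690-32387989 (minus strand) and chr3:66219637-66219936 (plus strand).
Saa1: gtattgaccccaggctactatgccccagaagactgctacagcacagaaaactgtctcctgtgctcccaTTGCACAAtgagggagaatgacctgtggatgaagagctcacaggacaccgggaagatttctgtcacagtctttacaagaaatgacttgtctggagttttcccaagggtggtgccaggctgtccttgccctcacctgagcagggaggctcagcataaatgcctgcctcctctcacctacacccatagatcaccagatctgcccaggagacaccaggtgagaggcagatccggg
Saa3: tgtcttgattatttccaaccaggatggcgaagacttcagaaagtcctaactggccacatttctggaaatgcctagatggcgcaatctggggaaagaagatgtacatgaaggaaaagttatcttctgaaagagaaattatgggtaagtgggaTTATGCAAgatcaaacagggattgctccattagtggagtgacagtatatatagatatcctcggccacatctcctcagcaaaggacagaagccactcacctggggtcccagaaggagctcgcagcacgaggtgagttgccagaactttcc
Lcn2: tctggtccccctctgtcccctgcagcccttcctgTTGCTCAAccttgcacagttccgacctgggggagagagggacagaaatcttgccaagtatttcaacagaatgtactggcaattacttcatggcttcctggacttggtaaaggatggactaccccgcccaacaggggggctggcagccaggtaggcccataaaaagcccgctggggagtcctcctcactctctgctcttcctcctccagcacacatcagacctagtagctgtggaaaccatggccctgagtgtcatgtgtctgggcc
Ptx3: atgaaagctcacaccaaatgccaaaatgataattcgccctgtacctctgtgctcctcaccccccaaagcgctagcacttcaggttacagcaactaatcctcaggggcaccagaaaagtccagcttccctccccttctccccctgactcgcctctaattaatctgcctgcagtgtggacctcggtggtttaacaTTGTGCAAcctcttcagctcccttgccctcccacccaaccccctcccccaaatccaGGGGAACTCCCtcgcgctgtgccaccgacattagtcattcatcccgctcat

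The C/EBP-type match begins 99 bases before the start site in Saa3, 216 in Lcn2, 57 in Ptx3, 182 in Saa1 and 183 in Saa2. The capitals near the end of the Ptx3 sequence are overlapping NF-kB matches that begin 1 base before its start site. The start regions of Saa1 and Saa2 were 95.3% identical, against 54.2% for Saa1 and Saa3. The transcripts of Saa1 and Saa2 were 93.9% identical and those of Saa1 and Saa3 64.3%, so some reads may not tell Saa1 from Saa2. How such reads were counted was not tested. Of the 50-base windows of Saa1, 13.2% are found unchanged in Saa2, but the reads were longer, at 150 bases, a length that was not compared.

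Saa3 was the most abundant of the 6 in each group. It was at 4731, 6376 and 5656 CPM under LPS- tlr4f/f-lysM-cre, at 1020.1, 1145 and 979.7 CPM under LPS+ tlr4f/f-lysM-cre, at 246, 431 and 0.953 CPM under LPS- tlr4f/f and at 2.32, 3.92 and 3.22 CPM under LPS+ tlr4f/f. Within a group the libraries lay close together, except for replicate 3 of LPS- tlr4f/f, which was far below the other replicates and below all LPS+ tlr4f/f libraries. Levels of different genes are compared as CPM per kb of transcript. On this scale Saa3 ranked 2 of 43131 genes in LPS- tlr4f/f-lysM-cre (10523 CPM per kb), 16 in LPS+ tlr4f/f-lysM-cre (1974 CPM per kb), 122 in LPS- tlr4f/f (426 CPM per kb) and 6912 in LPS+ tlr4f/f (5.94 CPM per kb).

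Saa1 and Saa2 were nearly silent. Saa1 had 21, 32 and 14 counts in the LPS- tlr4f/f-lysM-cre libraries, 6, 0 and 0 in LPS+ tlr4f/f-lysM-cre, 1, 0 and 0 in LPS- tlr4f/f and 0 in each LPS+ tlr4f/f library. Its LPS- tlr4f/f-lysM-cre libraries lay above all others, with a mean of 0.666 ± 0.296 CPM. Against the level of 3 counts per library, taken here as the floor of detection, this mean was at least 12.9-fold higher than in LPS- tlr4f/f and at least 10.5-fold higher than in LPS+ tlr4f/f. Saa2 had 4, 2 and 2 counts in LPS- tlr4f/f-lysM-cre and at most 1 count in any other library. Floors cover counting error only.

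Lcn2 followed the order of Saa3. It was at 732, 387 and 472 CPM in LPS- tlr4f/f-lysM-cre, at 56.9, 50.5 and 41.4 CPM in LPS+ tlr4f/f-lysM-cre, at 5.18, 4.04 and 0.0187 CPM in LPS- tlr4f/f and at 0.0838, 0.768 and 0.172 CPM in LPS+ tlr4f/f. The 2 cre headings did not overlap with each other or with the tlr4f/f headings, whereas the tlr4f/f headings overlapped. Per kb, Lcn2 reached 622 ± 211 CPM in LPS- tlr4f/f-lysM-cre and 58.2 ± 9.15 CPM in LPS+ tlr4f/f-lysM-cre.

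Ptx3 was at 36.3, 42.4 and 15.5 CPM in LPS- tlr4f/f-lysM-cre and at 23.1, 32.8 and 12.9 CPM in LPS+ tlr4f/f-lysM-cre. In contrast to Saa3 and Lcn2, these groups overlapped, and in both of them replicate 3 was lowest. The LPS- tlr4f/f libraries were at 1.35, 0.0802 and 0 CPM, the last without any count, and the LPS+ tlr4f/f libraries were at 0.209, 0.5375 and 0.0516 CPM. Both sets lay below every cre library.

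Hp was at 60.0, 144 and 192 CPM in LPS- tlr4f/f-lysM-cre and at 40.3, 44.1 and 72.5 CPM in LPS+ tlr4f/f-lysM-cre, so that the lowest library of the former lay within the range of the latter. It was at 5.03, 2.94 and 0.504 CPM in LPS- tlr4f/f and at 0.607, 0.947 and 1.27 CPM in LPS+ tlr4f/f, again with overlap. By group mean, Saa3, Lcn2, Ptx3 and Hp thus had the same order, with LPS- tlr4f/f-lysM-cre first, then LPS+ tlr4f/f-lysM-cre, then LPS- tlr4f/f, and LPS+ tlr4f/f last. The neighbours that overlapped were the tlr4f/f headings for all of them and the cre headings for Ptx3 and Hp.

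**Figure D1:**
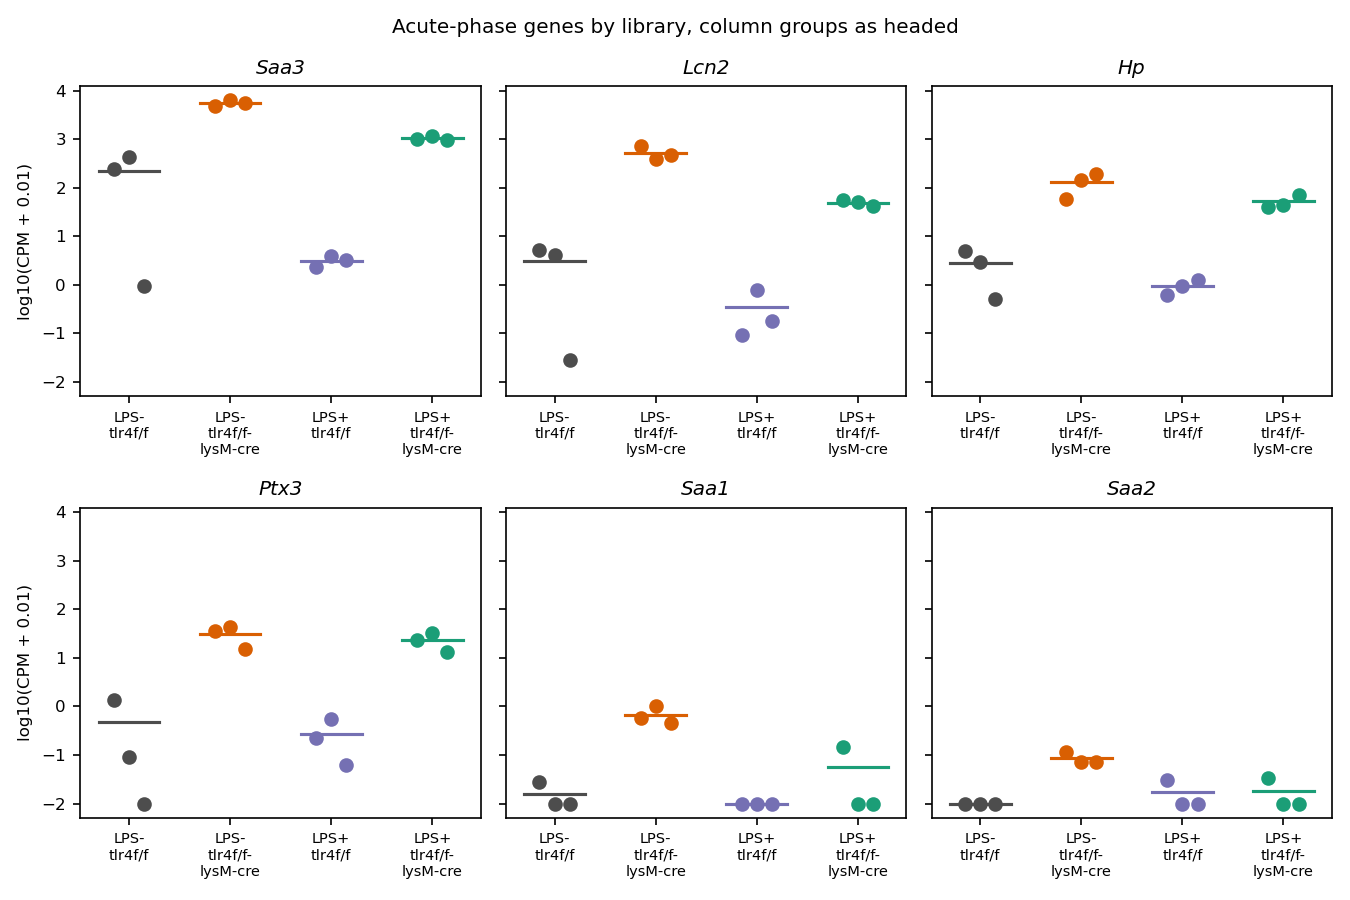
Level of each member in every library, as log10 of CPM plus 0.01, by column heading; points are libraries and bars are log10 of the group means plus 0.01. Saa3, Lcn2, Hp and Ptx3 are higher under both cre headings than under both tlr4f/f headings, replicate 3 of LPS- tlr4f/f is low for Saa3 and Lcn2, and Saa1 and Saa2 stay at or below about 1 CPM.

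In the heading LPS+ tlr4f/f-lysM-cre against LPS+ tlr4f/f, Saa3 was 333-fold, Lcn2 145-fold, Ptx3 86.2-fold and Hp 55.5-fold higher by group means. As headed, this is the effect of the genotype under LPS, and with exchanged headings it is the effect of LPS in tlr4f/f-lysM-cre. Genes were called differentially expressed (DEGs) when they differed by more than 2-fold at an adjusted p under 0.01 in the quasi-likelihood test of edgeR with Benjamini-Hochberg adjustment over all genes tested. The log2 fold change was 8.38 for Saa3 (SE 0.175, adjusted p = 5.65e-09), 7.32 for Lcn2 (SE 0.453, adjusted p = 6.26e-05), 6.57 for Ptx3 (SE 0.717, adjusted p = 0.000964) and 5.76 for Hp (SE 0.410, adjusted p = 0.000143) in edgeR. Thus 4 of 6 members were DEGs with a higher level, beside 10.8% of the 14540 genes tested (21.7% in either direction), and none of the 4 overlapped between the groups, which held for 33.5% of all genes tested, counted in the same direction. Saa1 and Saa2 were removed by the filter on low counts. Lcn2 and Ptx3, with 4, 30 and 10 counts and 10, 21 and 3 counts in LPS+ tlr4f/f, passed this filter through the group in which they were high. The 4 calls held when any library was left out, but without replicate 2 of LPS+ tlr4f/f the log2 fold change was 8.52 for Lcn2 and 7.51 for Ptx3, and without its replicate 3 it was 5.97 for Ptx3; with limma voom, Ptx3 had an adjusted p of 0.0275, the highest over its alternatives, of which the lowest was 7.10e-14. In bulk RNA, more cells that express a gene and more RNA per cell cannot be told apart.

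In LPS- tlr4f/f-lysM-cre against LPS- tlr4f/f, Hp and Saa1 were DEGs with a higher level in the former. As headed, this is the genotype without LPS, and with exchanged headings it is LPS in tlr4f/f. Hp differed by 5.53 on the log2 scale (SE 0.930, adjusted p = 0.00580 in edgeR). Saa1 passed the filter only through LPS- tlr4f/f-lysM-cre, and with its adjusted p of 0.00453 in edgeR the fold is the bound of 12.9 given above. Lcn2 (log2 fold change 7.41, SE 1.48, adjusted p = 0.0104 in edgeR), Ptx3 (6.01, SE 1.46, adjusted p = 0.0206) and Saa3 (4.61, SE 1.67, adjusted p = 0.0716) did not meet the criteria. Their means were 172-fold, 65.8-fold and 24.7-fold apart, and the groups did not overlap for any of the 5 members tested, as for 25.1% of all genes tested in the same direction. Of 6 members, 2 were thus DEGs with a higher level, beside 9.25% of the 14635 genes tested (17.1% in either direction). At an adjusted p under 0.05, 4 were called, Lcn2 and Ptx3 in addition, beside 27.7% of the genes. Lcn2 had 303, 252 and 1 counts in LPS- tlr4f/f and Ptx3 had 79, 5 and 0. Like Saa1, they passed the filter through the group in which they were high. Saa2 was not tested, as its counts were near the floor (4, 2 and 2 against 0 in each LPS- tlr4f/f library).

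The calls changed with the libraries used. Over all genes, 1038 to 1682 were called when a library was left out, against 2497 with every library. Without replicate 3 of LPS- tlr4f/f, Saa3 (log2 fold change 4.02, SE 0.374, adjusted p = 0.00247 in edgeR), Lcn2 (6.83, SE 0.450, adjusted p = 0.00170) and Hp (5.03, SE 0.654, adjusted p = 0.00545) were the DEGs, and Saa1 had an adjusted p of 0.0158. Without replicate 1 of LPS- tlr4f/f, Ptx3 alone was called (9.42, SE 1.03, adjusted p = 0.00397 in edgeR), and Hp was at 6.24. Leaving out any of the 6 libraries ended the call of Saa1, with adjusted p from 0.0130 to 0.0215, and leaving out any but replicate 3 of LPS- tlr4f/f ended that of Hp, with adjusted p from 0.0115 to 0.0281.

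Under the cre headings, Saa3 and Lcn2 were lower in LPS+ tlr4f/f-lysM-cre than in LPS- tlr4f/f-lysM-cre, whereas Ptx3 and Hp were not DEGs. As headed, this is the effect of LPS in tlr4f/f-lysM-cre, and with exchanged headings it is the genotype under LPS, with the lower level in tlr4f/f-lysM-cre. Saa3 fell by 2.40 (SE 0.160, adjusted p = 0.000951 in edgeR) and Lcn2 by 3.42 (SE 0.285, adjusted p = 0.00126 in edgeR) on the log2 scale, which is 5.33-fold and 10.7-fold by group means. Both were among the 22.5% of genes whose libraries in LPS+ tlr4f/f-lysM-cre all lay below those in LPS- tlr4f/f-lysM-cre. Saa1 rested on 6, 0 and 0 counts in LPS+ tlr4f/f-lysM-cre, and its fitted value of -3.70 (SE 1.08, adjusted p = 0.0457 in edgeR) ranged from -7.60, without replicate 1 of that group, to -3.12. The log2 fold change was -1.33 for Hp (SE 0.440, adjusted p = 0.0669) and -0.44 for Ptx3 (SE 0.442, adjusted p = 0.498) in edgeR. Hence 2 of 6 members were DEGs with a lower level, beside 3.65% of the 14234 genes tested (6.08% in either direction). Both calls ended without any of the LPS+ tlr4f/f-lysM-cre libraries, with adjusted p of 0.0142, 0.0142 and 0.0133 for Saa3 and 0.0157, 0.0169 and 0.0146 for Lcn2 without replicates 1, 2 and 3, while the fold changes stayed between -2.46 and -2.35 and between -3.51 and -3.29. Over all genes tested, 4, 7 and 15 were called in these fits, against 865 with every library. In the fit of all 12 libraries, which shares a single estimate of the spread, the adjusted p was 0.150 for Saa3 and 0.0220 for Lcn2. The fits of a pair of groups also share an estimate over both groups. The coefficient of variation between libraries beyond counting error was 48.1% in LPS- tlr4f/f and 42.6% in LPS- tlr4f/f-lysM-cre. It was 8.83% in LPS+ tlr4f/f and 9.04% in LPS+ tlr4f/f-lysM-cre.

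No member was a DEG between LPS+ tlr4f/f and, as its reference, LPS- tlr4f/f, which is LPS in tlr4f/f as headed and the genotype without LPS with exchanged headings. The log2 fold change was -6.15 for Saa3 (SE 1.82, adjusted p = 0.113), -3.19 for Lcn2 (SE 1.58, adjusted p = 0.270), -1.56 for Hp (SE 0.790, adjusted p = 0.278) and -0.86 for Ptx3 (SE 1.59, adjusted p = 0.769) in edgeR. The percentage of genes called was 0 of 14701 tested, although 24.7% had an unadjusted p below 0.05. DESeq2 called 464 genes, Saa3 among them, and without replicate 3 of LPS- tlr4f/f edgeR called 184 genes with Saa3 among them (log2 fold change -6.73, adjusted p = 0.00337). Without replicate 1 or 2 of LPS- tlr4f/f, Saa3 was not called. For Ptx3 the sign itself was not stable, with a log2 fold change of 2.59 without replicate 1 of LPS- tlr4f/f.

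The heading LPS- tlr4f/f and the heading LPS+ tlr4f/f-lysM-cre name the same libraries in both readings, so their comparison does not depend on the exchange, but genotype and LPS differ together in it. Hp was the only DEG among the members (log2 fold change 4.21, SE 0.787, adjusted p = 0.00835 in edgeR), higher in LPS+ tlr4f/f-lysM-cre. The values were 5.57 for Ptx3 (SE 1.35, adjusted p = 0.0198), 4.001 for Lcn2 (SE 1.17, adjusted p = 0.0371) and 2.21 for Saa3 (SE 1.51, adjusted p = 0.284) in edgeR, and for each of these genes all libraries of LPS+ tlr4f/f-lysM-cre lay above those of LPS- tlr4f/f, as for 29.2% of all genes tested. Of 6 members 1 was thus called higher, beside 6.92% of the 14584 genes tested (13.4% in either direction). At an adjusted p under 0.05, Lcn2 and Ptx3 were called as well, which makes 3 beside 20.9%. Lcn2 and Ptx3 passed the filter on low counts through LPS+ tlr4f/f-lysM-cre, the group in which they were high. Without replicate 3 of LPS- tlr4f/f, Hp (3.71, adjusted p = 0.00219), Lcn2 (3.42, adjusted p = 0.000183) and Saa3 (1.63, adjusted p = 0.00550) were called in edgeR. Without its replicate 1, Hp (4.91) and Ptx3 (8.98, adjusted p = 0.00239) were called. The call of Hp ended without replicate 2 of LPS- tlr4f/f (adjusted p = 0.0281) and without replicate 1, 2 or 3 of LPS+ tlr4f/f-lysM-cre (adjusted p = 0.0282, 0.0299 and 0.0319). Calls over all genes were 1737 in the first of these fits and 657, 592 and 753 in the others, against 1950 with every library.

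The difference of the LPS effects between genotypes is the same contrast in both readings and used all 12 libraries. No member was a DEG in it, beside 1.04% of the 15775 genes tested in edgeR, of which 23.5% had an unadjusted p below 0.05. The difference was 3.75 for Saa3 (SE 1.65, adjusted p = 0.201), 0.48 for Ptx3 (SE 1.51, adjusted p = 0.881), 0.24 for Hp (SE 0.921, adjusted p = 0.905) and -0.15 for Lcn2 (SE 1.56, adjusted p = 0.968) on the log2 scale. Saa3 became a DEG without replicate 3 of LPS- tlr4f/f (4.34, adjusted p = 0.000926). The fit gave Saa1 no usable value, as both tlr4f/f headings were at the floor.

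**Figure D2:**
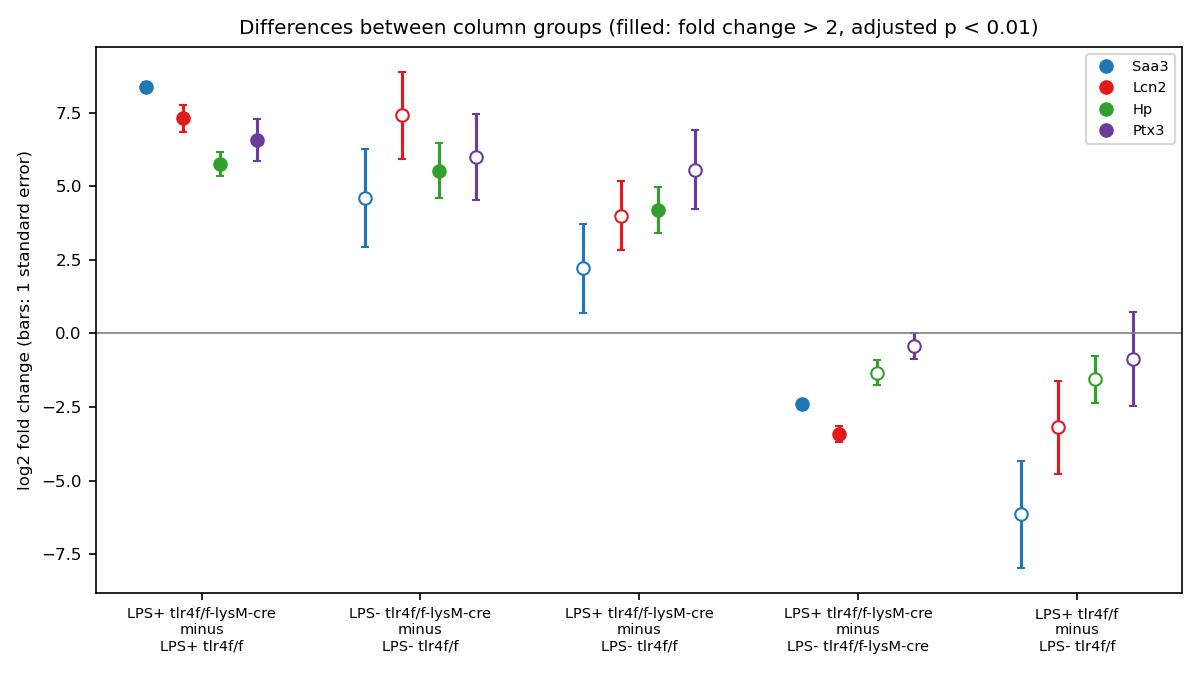
Log2 fold changes of Saa3, Lcn2, Hp and Ptx3 in 5 comparisons of column headings; bars are 1 standard error and filled points met the DEG criteria. The 4 genes are all filled only in LPS+ tlr4f/f-lysM-cre minus LPS+ tlr4f/f, and the bars are longest in the comparisons that hold the LPS- tlr4f/f libraries.

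Markers of other cells differed between groups and libraries. The 10 fibroblast and stromal markers, which include the collagen genes Col1a1 and Col3a1, summed to 692, 63.9 and 11.1 CPM in LPS- tlr4f/f and to 1015, 192 and 1561 CPM in LPS- tlr4f/f-lysM-cre, but only to between 48.4 and 61.5 CPM in LPS+ tlr4f/f-lysM-cre and between 23.2 and 28.2 CPM in LPS+ tlr4f/f. All 10 were above the floor in every group except LPS+ tlr4f/f, where Thy1 was not. Replicate 3 of LPS- tlr4f/f, the library with the lowest Saa3, also had the lowest sum of these markers, whereas among the LPS- tlr4f/f-lysM-cre libraries the highest Saa3 was in replicate 2, which had the lowest sum. The 14 neutrophil markers summed to between 30.2 and 256 CPM in LPS- tlr4f/f, 394 and 788 CPM in LPS- tlr4f/f-lysM-cre, 63.8 and 75.9 CPM in LPS+ tlr4f/f and 461 and 493 CPM in LPS+ tlr4f/f-lysM-cre. Between 11 and 12 of them were above the floor in each group. Ly6g and Retnlg were at the floor in all groups, and Cxcr2 was at the floor under both cre headings. The sums do not describe every marker. In LPS+ tlr4f/f-lysM-cre against LPS+ tlr4f/f, 4 of 10 neutrophil markers tested were DEGs with a higher level, beside 10.8% of all genes, and 2 with a lower level. Their median log2 fold change was -0.12. In LPS- tlr4f/f-lysM-cre against LPS- tlr4f/f, 10 of 11 tested had a positive value (median 2.89), with 0 DEGs. The part of these cells in the levels of the members was not tested.

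Alb, Ttr, Apoa1, Fabp1 and Tat, which belong to the 7 hepatocyte markers, were at the floor in all 12 libraries. Apoa2 was above it in every group, with means of at most 0.917 CPM, and Cyp2e1 in LPS- tlr4f/f, with at most 13 counts. Also at the floor were Adipoq, Plin1, Lep and Cidec of the 5 adipocyte markers. The 8 macrophage markers were all above the floor in every group and summed to between 4025 and 28254 CPM per library. This list includes Lyz2, and the LPS+ headings had the lower sums, of 4025 to 5992 CPM. The 5 endothelial markers summed to between 36.7 and 166 CPM.

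**Figure D3:**
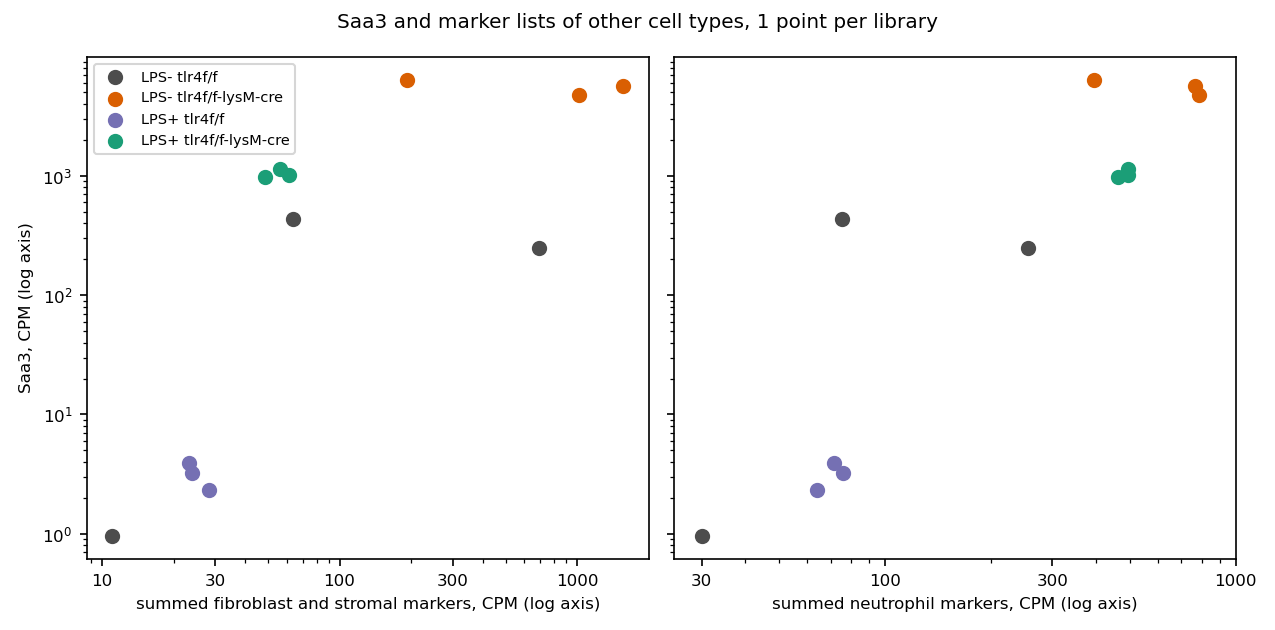
Saa3 in CPM against the summed CPM of fibroblast and stromal markers (left) and of neutrophil markers (right), 1 point per library, all axes logarithmic. Replicate 3 of LPS- tlr4f/f is at the lower left in both panels, and LPS+ tlr4f/f-lysM-cre libraries have 979.7 to 1145 CPM of Saa3 beside stromal sums of 48.4 to 61.5 CPM.

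The cytokines that drive acute-phase genes differed in the same comparisons. The gene lists here and below were chosen with earlier results of these data known. Their counts beside the share of all genes are descriptions and not a test of the lists. Of 14 cytokine and receptor genes, 8 were DEGs with a higher and 1 with a lower level in LPS+ tlr4f/f-lysM-cre than in LPS+ tlr4f/f, and 7 were higher and 2 lower in LPS- tlr4f/f-lysM-cre than in LPS- tlr4f/f. The median log2 fold change over the 12 and 13 genes tested was 2.83 and 3.79, beside -0.02 and -0.08 over all genes tested. The share of all genes called higher was 10.8% and 9.25% in these comparisons. Il6, the main inducer of the hepatic response, differed by 9.87 (SE 0.381, adjusted p = 8.12e-06) and 10.62 (SE 1.55, adjusted p = 0.00357), and Il1b by 9.66 (SE 0.106, adjusted p = 2.15e-14) and 10.15 (SE 1.78, adjusted p = 0.00673) in edgeR. The receptor chain shared by the interleukin 6 family, Il6st, was lower, by -1.65 (SE 0.0928, adjusted p = 1.62e-07) and -1.54 (SE 0.179, adjusted p = 0.00166), and the interleukin 6 receptor Il6ra was lower in the latter comparison only by the criteria (-2.25, SE 0.244, adjusted p = 0.00133). Without replicate 2 of LPS+ tlr4f/f-lysM-cre the first count was 7, and the second ranged from 1, without replicate 2 of LPS- tlr4f/f, to 6. In the latter comparison the calls of Il6 and Il1b were lost in 4 and 5 of the 6 fits without a library. Between the cre headings no gene of this list was a DEG, but 3 were, with a lower level in LPS+ tlr4f/f-lysM-cre, without replicate 2 of LPS- tlr4f/f-lysM-cre.

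The list of transcription factors and inhibitors was also chosen with earlier results known. Of 13 transcription factors and inhibitors of these pathways, 11 were DEGs with a higher level in LPS+ tlr4f/f-lysM-cre than in LPS+ tlr4f/f and 12 in LPS- tlr4f/f-lysM-cre than in LPS- tlr4f/f, with medians of 3.03 and 3.05. These counts were 11 in each leave-out of the former and 11 or 12 in those of the latter. Over all genes tested, 10.8% and 9.25% were called higher. Socs3, the feedback inhibitor of interleukin 6 signalling, led in both (7.65, SE 0.154, adjusted p = 1.27e-09, and 8.17, SE 0.975, adjusted p = 0.00194 in edgeR). The NF-kB partner Nfkbiz differed by 5.65 (SE 0.131, adjusted p = 2.16e-09) in the former and Tnfaip3, which shuts NF-kB signalling off, by 5.90 (SE 0.612, adjusted p = 0.00123) in the latter. Cebpa was the exception, lower by -1.12 (SE 0.0727, adjusted p = 6.24e-08) and -2.37 (SE 0.317, adjusted p = 0.00254). Between the cre headings, 7 of the 13 were DEGs with a lower level in LPS+ tlr4f/f-lysM-cre, beside 3.65% of all genes tested. Among them were Socs3 (-2.14, SE 0.171, adjusted p = 0.00113) and Tnfaip3 (-2.12, SE 0.146, adjusted p = 0.000960), but none of the 13 was called without replicate 1, 2 or 3 of LPS+ tlr4f/f-lysM-cre. In these fits 4, 7 and 15 of all genes tested were called, against 865 with every library.

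Of 26 other acute-phase genes on the list, 13 passed the filter in LPS+ tlr4f/f-lysM-cre against LPS+ tlr4f/f, and 11 of them were DEGs with a higher level (10 or 11 when a library was left out), with a median log2 fold change of 3.19. They included the ferroxidase Cp (6.58, SE 0.120, adjusted p = 8.93e-13) and the complement factor Cfb (5.41, SE 0.108, adjusted p = 8.10e-12 in edgeR). The share of all genes called higher in this comparison was 10.8%, and it was 9.25% in the next. In LPS- tlr4f/f-lysM-cre against LPS- tlr4f/f, 3 of 13 tested were DEGs, led by the metalloreductase Steap4 (7.09, SE 0.530, adjusted p = 0.000603) and the complement component C3 (3.84, SE 0.557, adjusted p = 0.00331), and this count ranged from 1, without replicate 2 of LPS- tlr4f/f or replicate 1 or 2 of LPS- tlr4f/f-lysM-cre, to 4. Between the cre headings 6 of 14 tested were lower in LPS+ tlr4f/f-lysM-cre, among them Steap4 (-4.02, SE 0.332, adjusted p = 0.00125). That count was 0, 0 and 1 without replicates 1, 2 and 3 of LPS+ tlr4f/f-lysM-cre, beside 4, 7 and 15 called of all genes tested. Over all genes tested with every library, 3.65% were called lower. Crp, Apcs, Itih3, Itih4 and Serpina1a were at the floor in every group.

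**Figure D4:**
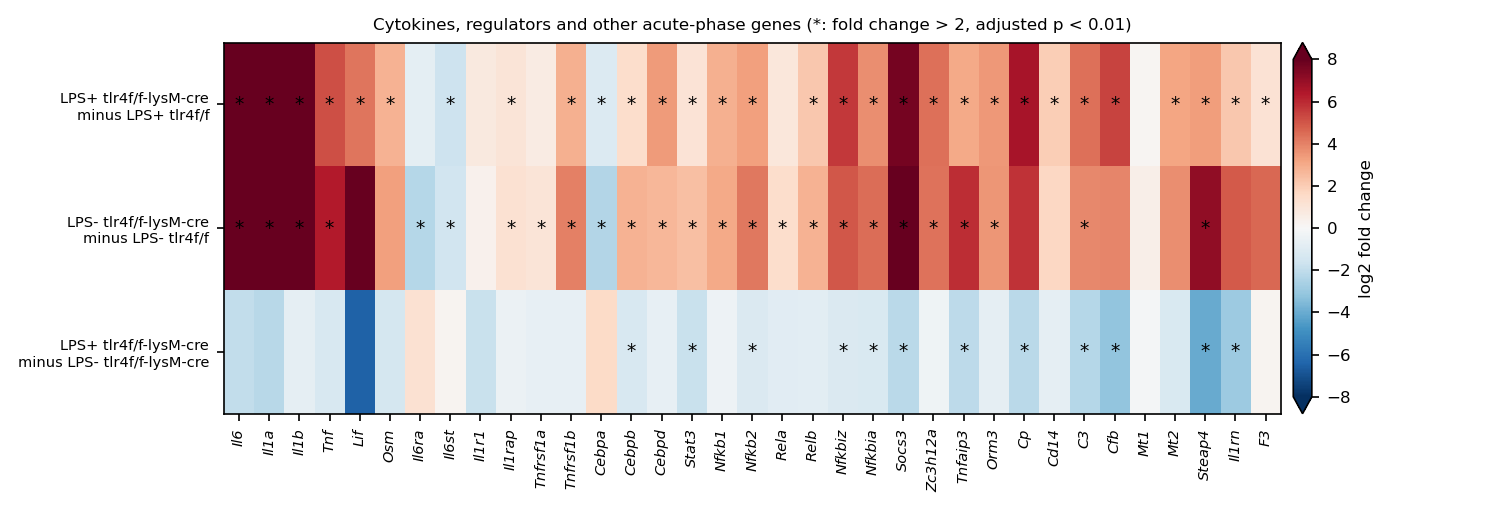
Log2 fold changes of 35 cytokine, receptor, regulator and other acute-phase genes tested in 3 comparisons of column headings, on a colour scale from -8 to 8; a star marks a DEG. Most genes are higher in the upper pair of comparisons and lower in LPS+ tlr4f/f-lysM-cre than in LPS- tlr4f/f-lysM-cre, while Cebpa and Il6st are lower in the upper pair.

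Among 17 receptors and partners of the members are the formyl peptide receptors Fpr1 and Fpr2, of which Fpr2 is a reported receptor of SAA. Fpr2 was at 288 ± 39.7 CPM in LPS- tlr4f/f-lysM-cre, 101 ± 17.1 CPM in LPS+ tlr4f/f-lysM-cre, 3.396 ± 2.67 CPM in LPS- tlr4f/f and 0.402 ± 0.295 CPM in LPS+ tlr4f/f. Its log2 fold change was 7.89 in LPS+ tlr4f/f-lysM-cre against LPS+ tlr4f/f (SE 0.347, adjusted p = 1.13e-05), 6.39 in LPS- tlr4f/f-lysM-cre against LPS- tlr4f/f (SE 0.996, adjusted p = 0.00450) and -1.51 between the cre headings (SE 0.175, adjusted p = 0.00289) in edgeR. Fpr1 differed by 6.86 (SE 0.196, adjusted p = 1.18e-10) in the first of these and by -3.09 (SE 0.247, adjusted p = 0.00113) in the last. Tlr2, another receptor reported for SAA, was higher in LPS- tlr4f/f-lysM-cre than in LPS- tlr4f/f (3.37, SE 0.546, adjusted p = 0.00509). The haemoglobin-haptoglobin receptor Cd163 was lower in LPS+ tlr4f/f-lysM-cre than in LPS+ tlr4f/f (-1.35, SE 0.258, adjusted p = 0.00197), and Scarb1, a lipoprotein receptor, was lower in LPS- tlr4f/f-lysM-cre than in LPS- tlr4f/f (-1.69, SE 0.260, adjusted p = 0.00398). In all, 4 of 14 tested were higher and 1 lower under LPS+ tlr4f/f-lysM-cre against LPS+ tlr4f/f, where 10.8% of all genes were higher. Against LPS- tlr4f/f, 2 of 15 were higher and 1 lower in LPS- tlr4f/f-lysM-cre, where 9.25% of all genes were higher. Neither higher gene was called when any library other than replicate 3 of LPS- tlr4f/f was left out, and the call of Scarb1 was lost in 5 of 6 such fits (adjusted p up to 0.0181). The calls between the cre headings, 2 of 14 with a lower level, were lost without any of the LPS+ tlr4f/f-lysM-cre libraries. Calls over all genes then fell from 865 to 4, 7 and 15 without replicates 1, 2 and 3. Lrp2 and Slc22a17, the receptors of Lcn2, had at most 16 and 30 counts in any library.

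The same lists were compared between LPS+ tlr4f/f-lysM-cre and, as the reference, LPS- tlr4f/f, the pair that the exchange of headings leaves unchanged. There, 10 of 13 transcription factors and inhibitors were DEGs with a higher level (median log2 fold change 2.62), as were 6 of 13 cytokine and receptor genes tested (median 1.88), with 2 lower, 3 of 12 other acute-phase genes (median 2.26), and 2 of 15 receptors and partners (median 0.12), with 1 lower. The median over all genes was -0.05, and 6.92% of them were higher. Zc3h12a, which encodes an RNase that degrades cytokine mRNA, differed by 3.95 (SE 0.190, adjusted p = 0.000173) and was called in all 6 fits without a library. Socs3 differed by 6.03 (SE 0.851, adjusted p = 0.00322), Il1b by 9.45 (SE 1.46, adjusted p = 0.00437) and Il6 by 8.67 (SE 1.12, adjusted p = 0.00244) in edgeR. The tissue factor gene F3 was higher by 4.81 (SE 0.742, adjusted p = 0.00431) and Steap4 by 3.08 (SE 0.489, adjusted p = 0.00449), Fpr2 by 4.89 (SE 0.893, adjusted p = 0.00767) and Tlr2 by 3.62 (SE 0.539, adjusted p = 0.00385). Il6st (-1.29, SE 0.130, adjusted p = 0.00101), Il6ra (-1.04, SE 0.190, adjusted p = 0.00708) and Scarb1 (-1.19, SE 0.116, adjusted p = 0.000926) were lower. Their calls were lost in 2, 5 and 1 of the 6 fits without a library. Those of Socs3, Il1b, F3, Steap4 and Tlr2 were lost in 4, that of Il6 in 3 and that of Fpr2 in 5. Without replicate 1, 2 or 3 of LPS+ tlr4f/f-lysM-cre the higher counts fell to 5 transcription factors and inhibitors, 2 cytokine and receptor genes, 0 other acute-phase genes and 0 receptors and partners in each case, and without replicate 2 of LPS- tlr4f/f 1 other acute-phase gene was left. Without replicates 1, 2 and 3 of LPS+ tlr4f/f-lysM-cre, calls over all genes fell from 1950 to 657, 592 and 753.

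Over the 12 libraries, the log2 CPM of Saa3 had a Pearson r of 0.971 with Lcn2, 0.942 with Hp and 0.863 with Ptx3. Among the 12219 genes with a mean of at least 1 CPM outside the members, Aoah (r = 0.993) and Ccl5 (r = 0.992) were most like Saa3, Fpr1 (r = 0.992) and Cp (r = 0.988) most like Lcn2, Apbb1ip (r = 0.977) and Plpp1 (r = 0.976) most like Ptx3, and Ikbke (r = 0.988) and Socs3 (r = 0.983) most like Hp. These values describe 4 groups of 3 libraries that fall into separate levels, and they carry no test. Saa1 and Saa2, with means below 1 CPM, were not ranked.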

How the data were processed

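PolyA RNA was sequenced in 12 BMDM libraries. Reads were trimmed by the authors (Trimmomatic 0.36 in the submitters' processing notes), mapped with HISAT2 on mm10 and counted by HTSeq. The deposited values are whole-number counts for 115140 transcripts, without normalization. Whether strand was used in counting is not given in the sources used here. Transcripts of a gene share reads, so the transcript with the highest total was taken for each of 43131 genes (equal totals, as in Saa1 and Saa2, by file order), which left 33577087 to 56445268 counts per library (median 45330681). For Ensembl transcripts, 7551 of 7596 gene IDs matched a symbol.

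Groups follow the headings. Counts were tested with edgeR 4.0.16 under R 4.3.3 (genes kept by filterByExpr, TMM factors, robust quasi-likelihood fit, Benjamini-Hochberg adjustment) on the libraries compared, and the interaction on all 12. The DEG criteria (more than 2-fold, adjusted p under 0.01) are those of the study, which used DESeq. SE is the log2 fold change divided by the square root of F. A group was at the floor when no library had more than 3 counts. The tests were checked on simulated data. Replicate numbers were not treated as pairs.

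The members and gene lists were chosen with earlier results of these data known. Named genes are the members, Tlr4, Lyz2, Il1b, for each list and comparison the top 2 DEGs by size of change among those higher and among those lower, and for each member above 1 CPM the 2 genes with the highest r. Lrp2, Slc22a17 and the genes named as at the floor were chosen after their values were seen. A result that the rule would name between the cre headings is not reported here. Alternatives were DESeq2 1.42.0, limma 3.58.1 voom with quality weights, RLE factors, other count filters, a single fit of 12 libraries, a replicate block, summed transcripts, an adjusted p below 0.05, exchanged headings and each library left out. Start regions were read with Python 3.11.15 from RefSeq (GRCm38.p6), and transcripts compared with Biopython 1.88.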

Additional observations from a re-analysis of the deposited data

Results flagged for a closer look

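The difference of the LPS effects between genotypes passed the test for 2 genes of the acute-phase lists, neither of them a member. For Steap4 it was -3.73 on the log2 scale (SE 0.603, adjusted p = 0.00813 in edgeR). Its counts in LPS+ tlr4f/f were at the floor of 3 per library, so that this size depends on the fit. For Stat3, the transcription factor downstream of interleukin 6, it was -1.34 (SE 0.217, adjusted p = 0.00813 in edgeR). Stat3 was at 149.8 ± 5.93 CPM in LPS- tlr4f/f, 107 ± 5.06 CPM in LPS+ tlr4f/f, 806.5 ± 201 CPM in LPS- tlr4f/f-lysM-cre and 229 ± 6.06 CPM in LPS+ tlr4f/f-lysM-cre (mean ± SD, n = 3). The contrast is the same with exchanged headings. Leaving out any library other than those of LPS- tlr4f/f-lysM-cre ended both calls, with adjusted p in edgeR from 0.0102 to 0.0376 for Steap4 and from 0.0119 to 0.0333 for Stat3, while the sign stayed the same. Over all genes, 99 to 189 were called without a LPS- tlr4f/f library and 10 to 21 without a LPS+ library, against 164.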

How the results depend on the processing

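For LPS+ tlr4f/f-lysM-cre against LPS+ tlr4f/f, 4 members were called in all alternatives but the minimum of 10 counts in every library, which tested and called 2, and voom, which called all but Ptx3. Over all genes, this minimum called 2540 of 12698 and voom 3201 of 14540, beside 3161 of 14540 without these changes. Leaving out a library gave 4 to 4. For LPS- tlr4f/f-lysM-cre against LPS- tlr4f/f, the 2 calls became 5 with DESeq2, 4 with voom, with the fit of 12 libraries and at an adjusted p below 0.05, 1 without a filter, with the minimum of 10 counts and with summed transcripts, and 0 with the replicate block. Over all genes, 2497 calls became 3992 with DESeq2, 2694 with voom and 4251 in the fit of 12 libraries. They became 4056 at an adjusted p below 0.05, 2717 without a filter and 2442 with the minimum of 10 counts. Summed transcripts gave 2193 and the replicate block 2198. Leaving out a library gave 0 to 3. Between the cre headings, the 2 calls became 4 with DESeq2, 3 at an adjusted p below 0.05 and 0 in the fit of 12 libraries, and 0 to 2 without a library. Over all genes, 865 calls became 2002, 1983 and 1150 in the same order, and 4 to 1178 without a library. Between the tlr4f/f headings, the count of 0 became 1 with DESeq2, and 0 to 1 without a library. Over all genes, 0 became 464 with DESeq2, and 0 to 184 without a library. For LPS+ tlr4f/f-lysM-cre against LPS- tlr4f/f, the 1 call became 3 at an adjusted p below 0.05 and in the fit of 12 libraries, 2 with DESeq2, and 0 with voom, without a filter, with the replicate block and with summed transcripts, and 0 to 3 without a library. Over all genes, 1950 calls became 3045, 2434, 2965, 2399, 1954, 922 and 1779 in the same order, and 592 to 2291 without a library. The interaction called 0 to 1 without a library. Exchanged headings changed the number of members called and, in part, their direction. The response of tlr4f/f to LPS moved from 0 calls to 2 higher, Hp and Saa1. Saa1 passed the filter only through the group in which it was high. The calls of Hp and Saa1 were lost in 5 and 6 of the 6 fits without a library. The response of tlr4f/f-lysM-cre to LPS reversed, from 2 lower to 4 higher. Without LPS, the genotype calls moved from 2 higher in tlr4f/f-lysM-cre to 0. With LPS, they reversed from 4 higher to 2 lower in tlr4f/f-lysM-cre. Over all genes tested, 9.25% were called higher between the LPS- headings and 10.8% between the LPS+ headings. Between the cre headings 3.65% were called lower, and between the tlr4f/f headings 0 genes were called. The causes were not tested.

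The sign changed for Ptx3 between the tlr4f/f headings (-0.86) with the replicate block (0.49) and without a library (-1.86 to 2.59). In the interaction it changed with voom for Lcn2 (0.25) and Ptx3 (-0.29), and without a library for Lcn2 (-0.73 to 1.11), Ptx3 (-2.91 to 1.45) and Hp (-0.46 to 0.73). None of these was called. Other member values kept their sign, as did the list genes named in each comparison, the only list genes followed over the alternatives.

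Over all genes, DESeq2 called 464, 2002, 3992, 2965 and 644 where edgeR called 0 (tlr4f/f headings), 865 (cre headings), 2497 (LPS- headings), 1950 (LPS+ tlr4f/f-lysM-cre against LPS- tlr4f/f) and 164 (interaction). An adjusted p below 0.05 gave 92, 1983, 4056, 3045 and 629. The fit of 12 libraries gave 74 for the tlr4f/f headings, 4251 for the LPS- headings and 2045 instead of 3161 for the LPS+ headings. Voom called 54 and the fit without a filter 34 between the tlr4f/f headings. Same-numbered libraries deviated together with r from -0.04 to 0.47, and the numbers were not treated as pairs. The replicate block gave 212 calls between the cre headings and 922 for LPS+ tlr4f/f-lysM-cre against LPS- tlr4f/f. Without a library, the counts over all genes were 0 to 184 (tlr4f/f headings), 4 to 1178 (cre headings), 1038 to 1682 (LPS- headings), 3017 to 3152 (LPS+ headings), 592 to 2291 (LPS+ tlr4f/f-lysM-cre against LPS- tlr4f/f) and 10 to 306 (interaction). The lowest counts of the cre headings, 4, 7 and 15, were those without replicates 1, 2 and 3 of LPS+ tlr4f/f-lysM-cre.

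Depth limits Saa1 and Saa2, whose counts in the transcripts taken were at most 32 and 4. Another Saa1 transcript with the same total of 74 reached 36.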
